A study of Mus musculus with 6 samples.

Results

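Amino acids cross membranes through carriers of the solute carrier (SLC) families, and 36 genes that encode such carriers were examined in hypoxic and normoxic pancreatic stellate cells (PSCs). They form a list of names, fixed with earlier results of these data known, from the families Slc1, Slc3, Slc6, Slc7, Slc36, Slc38 and Slc43. All 36 were found among the 55426 features of the deposited table by their Ensembl identifiers in GENCODE M21, the mouse annotation on GRCm38. Of these, 34 had enough counts to be tested, against 16207 of all features. PSCs are fibroblast precursors of the pancreas and were isolated here from wild-type C57BL/6 mice and used as primary lines at low passage. They were seeded in Matrigel in an insert above organoids of mT3, a tumor line from a mouse model of pancreatic ductal adenocarcinoma (PDAC). RNA of the PSCs was sequenced after 48 h, with 3 samples at 21% O2 (normoxia) and 3 at 1% O2 (hypoxia), and the organoids were present in both groups. The question was how the oxygen level changed the RNA of PSCs that were kept with tumor cells.

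Carriers differ in what they move and in what drives them. Those of the Slc1 and Slc38 families mostly take up glutamate, glutamine and small neutral amino acids with sodium, whereas many Slc7 proteins exchange one amino acid for another and need Slc3a1 or Slc3a2 as a partner chain to reach the membrane. Some carriers sit in the lysosome, where they export amino acids and report on them to mTORC1, the kinase complex that couples amino acid supply to growth. PDAC cells are known to take up amino acids that stellate cells release, alanine among them.

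Each library held between 24749601 and 31925054 counts, at which 3 counts correspond to 0.094 to 0.121 CPM (counts per 1000000 counts of the scaled library). Fibroblast markers were abundant in all samples, with Col1a1, a collagen chain, at a mean of 8321 CPM in normoxia and 8496 CPM in hypoxia. Of the 12 listed markers 2 were called higher and 2 lower. By the rule given below, 18.9% of all tested genes were called higher and 15.3% lower, which stands beside each count of this paragraph. Of the epithelial markers that the tumor organoids could contribute, Epcam and Cdh1 had 0 or 1 count in every sample, and the summed level of the 10 markers was 3.26 to 5.40 CPM in normoxia and 25.0 to 29.0 CPM in hypoxia. Most of that hypoxic level was Krt19, at a mean of 22.1 CPM, a gene named after its values were seen. Adipocyte and macrophage markers were not evenly spread over the samples. The 12 adipocyte markers summed to 1132, 2295 and 1065 CPM in normoxia replicates 1, 2 and 3 and to 178, 208 and 167 CPM in hypoxia, and all 10 that could be tested were called lower, with Lep at 0 in all samples and Pck1 too rare to test. The 12 macrophage markers summed to 864, 1508 and 1178 CPM in normoxia and 454, 804 and 552 CPM in hypoxia, with 6 called lower and none higher. Normoxia replicate 2 was thus the highest library in both lists, and tested carriers that were highest of all samples in it are given below with and without it. Of the 8 endothelial markers 7 could be tested, with 2 called higher, 2 lower and sums of 12 to 18.2 CPM in normoxia and 16.7 to 23.8 CPM in hypoxia. Of the 10 acinar markers 5 were at 0 in all samples and 1 could be tested, which was not called. Among the called markers, Cidec and Retn passed the count filter only through normoxia and Esam, an endothelial marker, only through hypoxia. In RNA taken from all cells of a PSC sample together, fewer cells of a type and less RNA per cell cannot be told apart. Whether the marker RNA came from other cells or from the PSCs themselves was not tested.

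A gene was called when its linear fold change was over 1.5 and its Benjamini-Hochberg adjusted p in edgeR's quasi-likelihood test, fitted over all tested genes, was under 0.05. By this rule 10 of the 34 tested carriers were higher in hypoxic PSCs, where 18.9% of all tested genes were called higher. Another 5 were lower, where 15.3% of all tested genes were called lower. With the adjusted p alone, 13 carriers were higher and 11 lower, against 31.8% and 31.0% of all tested genes. In 13 carriers every hypoxia sample lay above every normoxia sample, and in 11 every hypoxia sample lay below, which was the case for 34.9% and 34.0% of all tested genes. The median log2 fold change was -0.04 over the tested carriers and -0.0040 over all tested genes. Of the 36 genes, 29 had a mean of at least 1 CPM in both conditions. Among the called genes, Slc38a3, Slc3a1 and Slc38a4 had under 10 counts in each normoxia sample and could be tested only through their hypoxia samples. Slc1a2, with 11, 10 and 12 counts in normoxia, was at the edge of the count filter there and passed through its hypoxia samples too. The counts of calls therefore describe these genes and are not set above or below the background. Carriers of glutamate, of neutral amino acids, of branched-chain amino acids, of proline and glycine and of related substrates each included calls in both directions. The 2 genes called in the cationic class were higher, although the cationic Slc7a4 was called lower under 4 alternatives given below. The 1 lysosomal gene called was higher, while the lysosomal Slc38a7 and Slc36a1 were lower by the adjusted p alone.

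**Figure D1:**
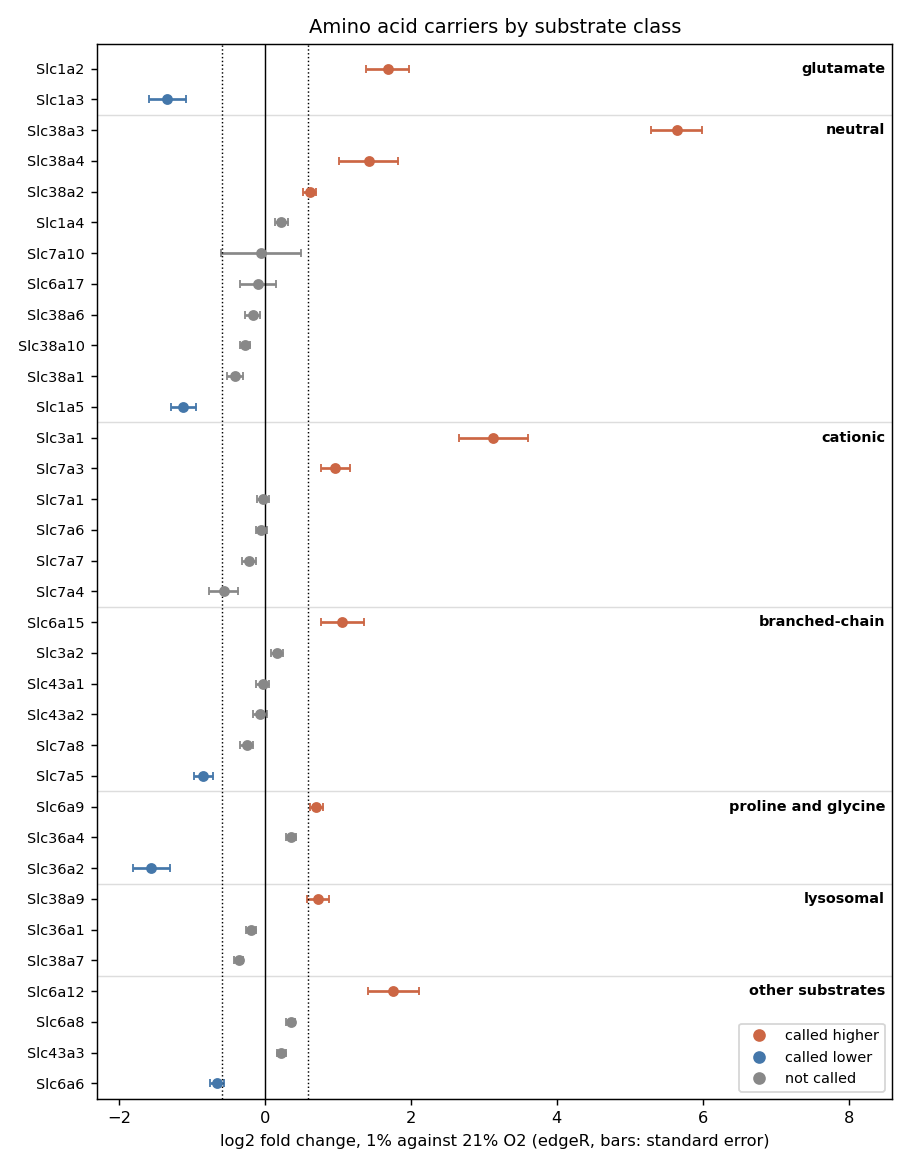
The log2 fold change of each tested carrier at 1% against 21% O2 is plotted on the horizontal axis by substrate class, with bars for the standard error of the edgeR fit and dotted lines at a fold of 1.5 in each direction. Orange points were called higher, blue points lower and grey points not called, and Slc38a3 lies farthest to the right with 5.64.

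Promoters of the carriers were searched for letters that factors of the hypoxia and amino acid responses are known to read. Hypoxia-inducible factors bind sites with the core ACGTG or GCGTG, and ATF4, the main factor of the amino acid response, binds composite sites of the form TGATGNAA. The 250 bases before each start in RefSeq's table for GRCm38.p6 were searched on both strands, which gave 41 promoters for 25 of the 36 genes. ACGTG or GCGTG was found in 17 of the 41 promoters, from 14 genes, and in 38.6% of all 32851 promoters of the table. Of the called carriers, 7 that were higher had promoters in the table, and the letters were found in those of 2, Slc6a9 and Slc38a4. A single carrier that was lower, Slc1a3, had a promoter there, without a match. TGATGNAA was found in 2 of the 41 promoters, both of Slc7a7, which was not called, and in 3.45% of all promoters. Windows of these genes are shown because they belong to called carriers that hold a match, and the capitals mark GCGTG, which starts 121 bases before this start of Slc6a9 and 15 bases before this one of Slc38a4. The first is chr4:117855297-117855546 on the plus strand, of which 28 bases are annotated as exon of a transcript, and the second is chr15:97020360-97020609 on the minus strand, with 0 exon bases. Slc6a9 has other annotated starts whose windows also hold GCGTG, 87 bases before one and 231 and 203 bases before another, and of those windows 250 and 157 bases are annotated as exon, so the window with the fewest exon bases is printed. Slc38a4 has other starts without a match. A match of these letters is a description of the sequence and not a bound site.
Slc6a9: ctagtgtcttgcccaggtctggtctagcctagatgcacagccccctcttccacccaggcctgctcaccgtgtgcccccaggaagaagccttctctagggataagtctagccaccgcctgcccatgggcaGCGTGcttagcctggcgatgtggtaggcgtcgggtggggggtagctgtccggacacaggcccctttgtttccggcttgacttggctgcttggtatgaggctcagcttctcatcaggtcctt
Slc38a4: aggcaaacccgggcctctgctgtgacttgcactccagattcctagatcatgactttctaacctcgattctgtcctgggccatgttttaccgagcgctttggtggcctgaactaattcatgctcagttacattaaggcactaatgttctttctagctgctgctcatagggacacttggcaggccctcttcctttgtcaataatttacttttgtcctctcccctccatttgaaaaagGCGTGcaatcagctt

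Carriers of glutamate went in opposite directions. Slc1a2 encodes GLT-1, a high-affinity glutamate carrier best known from astrocytes, and lies at chr2:102658659-102790784 (ENSMUSG00000005089). Its RNA was rare and was higher in hypoxia, and it passed the count filter only through its hypoxia samples. The normoxia samples held 11, 10 and 12 counts of it and the hypoxia samples 30, 55 and 38. The log2 fold change was 1.68 ± 0.29 (SE, n = 3 per group, edgeR adjusted p = 0.00091), and the groups did not overlap. Slc1a3 encodes GLAST, the other glial glutamate carrier, at chr15:8634124-8710764 (ENSMUSG00000005360), and was lower in hypoxia. It stood at 8.08, 11 and 7.30 CPM in normoxia and 4.99, 2.49 and 3.11 CPM in hypoxia, with a log2 fold change of -1.34 ± 0.25 (edgeR adjusted p = 0.00148). The highest sample was normoxia replicate 2, and without it the log2 fold change was -1.15 (edgeR adjusted p = 0.00336). Per kilobase of exon, Slc1a3 remained the more abundant of the pair in hypoxia, with a mean of 0.413 CPM against 0.105 CPM. Slc1a1, the neuronal and epithelial carrier EAAT3, was too rare to test. It had 0, 1 and 0 counts in normoxia and 2, 8 and 12 in hypoxia, a ratio of summed counts of 19.1 after library scaling, with a 95% exact interval from 3.09 to 788 that covers counting error only. DESeq2, and edgeR without the filter on low counts, called it higher. It shares 2631 exon bases on the opposite strand with 4430402I18Rik, which had 17 to 40 counts per sample. The strand setting of the counting is not given in the sources used here, so reads of overlapping genes on opposite strands cannot be assigned with certainty for the 11 carriers with such an overlap. Summed per kilobase, the 3 carriers came to 0.979, 1.33 and 0.893 CPM in normoxia and to 0.683, 0.456 and 0.501 CPM in hypoxia.

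Among the carriers of glutamine and other neutral amino acids, 10 of 11 could be tested, and 3 were higher, 1 lower and 6 not called. Slc38a3 encodes SNAT3, which moves glutamine, histidine and asparagine in either direction and is known from liver and kidney. It lies at chr9:107650634-107669530 (ENSMUSG00000010064). A single count of it was present in each normoxia sample, against 52, 71 and 70 counts in hypoxia. The ratio of the summed counts after library scaling was 55.9, with a 95% exact interval from 18.8 to 273 for counting error, and the fitted log2 fold change of 5.64 ± 0.35 depends on edgeR's prior count at such low numbers (edgeR adjusted p = 1.78e-06). The hypoxic level was 2.17 ± 0.115 CPM (SD, n = 3).

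Slc38a2 encodes SNAT2, the main system A carrier of alanine, glutamine and serine, at chr15:96687392-96699730 (ENSMUSG00000022462). It was abundant in all samples, with 312, 264 and 290 CPM in normoxia and 485, 389 and 450 CPM in hypoxia. Its fold change of 1.53 was just past the threshold (log2 fold change 0.61 ± 0.09, edgeR adjusted p = 0.000364), and the call was lost without normoxia replicate 2 (log2 value 0.55), without hypoxia replicate 1 (0.54) and with a trend over gene length removed (0.51). Slc38a4 (ENSMUSG00000022464), another system A carrier, follows on the same chromosome at chr15:96994820-97055956, the gene whose promoter is printed above. With 7, 9 and 4 counts in normoxia and 12, 21 and 30 in hypoxia it was rare, and its log2 fold change was 1.42 ± 0.40 (edgeR adjusted p = 0.0125). That call was lost without normoxia replicate 3 (edgeR adjusted p = 0.0523) or without hypoxia replicate 3 (edgeR adjusted p = 0.0598). The third gene of this stretch of chromosome 15, Slc38a1 at chr15:96571418-96642913, encodes SNAT1 and lay the other way, at 24.1, 17.8 and 20.1 CPM in normoxia and 16.0, 15.8 and 14.9 CPM in hypoxia. Its log2 fold change of -0.41 ± 0.11 passed the adjusted p but not the fold (edgeR adjusted p = 0.00911).

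Slc1a5 encodes ASCT2, a sodium-dependent exchanger and a main route of glutamine into many cells, and lies at chr7:16781340-16798274 (ENSMUSG00000001918). In normoxia its level per kilobase, 60.1 ± 16.4 CPM (SD, n = 3), was close to that of Slc6a8 and exceeded by that of Slc38a10. It fell from 199, 329 and 226 CPM in normoxia to 100, 132 and 114 CPM in hypoxia, a log2 fold change of -1.12 ± 0.17 (edgeR adjusted p = 0.000467). Normoxia replicate 2 was the highest sample here too, and without it the log2 fold change was -0.88 ± 0.10 (edgeR adjusted p = 9.73e-05). The ratio of Slc1a5 to Slc38a2 counts within a sample was 0.637, 1.25 and 0.779 in normoxia and 0.207, 0.339 and 0.254 in hypoxia. These groups did not overlap, as was already so for each gene alone, and the ratio adds no independent support. The exact permutation p of 0.1, with both sides counted, is the smallest that 3 samples against 3 can give.

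The other neutral carriers were not called. Slc38a10, a carrier of glutamine and other amino acids found on intracellular membranes, stood at 614, 537 and 613 CPM in normoxia and 520, 469 and 477 CPM in hypoxia, with a log2 fold change of -0.27 ± 0.07 that passed the adjusted p alone (edgeR adjusted p = 0.0104). Slc1a4, the alanine, serine and cysteine exchanger ASCT1, stood at 22.8, 18.6 and 18.3 CPM against 23.5, 23.6 and 22.3 CPM in hypoxia (log2 fold change 0.22, edgeR adjusted p = 0.0666). Slc38a6, an orphan member of its family, stood at 17.9, 21.9 and 20.6 CPM against 15.9, 18.0 and 19.8 CPM (log2 fold change -0.17, edgeR adjusted p = 0.191). In both of these genes the groups overlapped. Slc6a17 encodes a carrier of neutral amino acids on synaptic vesicles, and its 3 normoxia samples, at 27.1, 14.7 and 22.1 CPM, spanned nearly the same range as its hypoxia samples at 25.4, 13.6 and 20.8 CPM. In each condition replicate 2 was the lowest, and the log2 fold change was -0.10 ± 0.25 (edgeR adjusted p = 0.743). Slc7a10 encodes Asc-1, an exchanger of small neutral and D-amino acids that is also known from adipocytes. Its counts were 13, 67 and 19 in normoxia and 18, 46 and 46 in hypoxia, and the log2 fold change of -0.06 ± 0.55 had the widest error of all the carriers. Without normoxia replicate 2, the library with the most adipocyte marker RNA, it was 0.94 ± 0.40 (edgeR adjusted p = 0.0705). Slc7a10 shares 377 exon bases with Lrp3 on the opposite strand, which had 3130 to 4867 counts per sample. Slc38a5, the glutamine carrier SNAT5, had 1 count in normoxia replicate 1 and 0 in the other samples, and was not tested. Summed per kilobase, the neutral carriers came to 191, 204 and 193 CPM in normoxia and 172, 161 and 165 CPM in hypoxia.

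**Figure D2:**
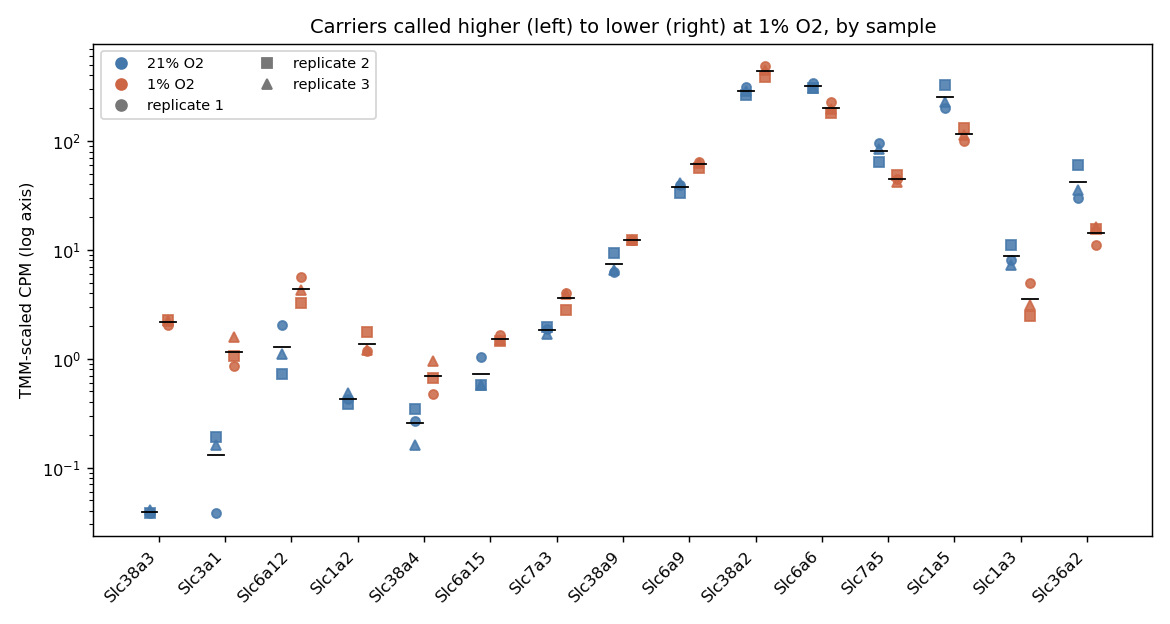
Each of the 15 called carriers is plotted with its TMM-scaled CPM on a log axis in the 3 samples at 21% O2 (blue) and the 3 at 1% O2 (orange), with the marker shape giving the replicate number and a black line the mean. From left to right the fold change goes from the highest, Slc38a3, to the lowest, Slc36a2, and in none of the genes do the colors overlap.

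Cationic amino acid carriers take up arginine, lysine and ornithine, and of 6 tested, 2 were higher, none lower and 4 not called. Slc3a1 encodes rBAT, the partner chain of the cystine and dibasic amino acid carrier of kidney and intestine, at chr17:85028376-85064236 (ENSMUSG00000024131). The normoxia samples held 1, 5 and 4 counts of it and the hypoxia samples 22, 33 and 50. That gave a log2 fold change of 3.13 ± 0.47 (edgeR adjusted p = 0.000367) and a ratio of summed counts of 9.12, with a 95% exact interval from 4.77 to 19.6 for counting error. Slc3a1 shares 601 exon bases on the opposite strand with Prepl, which had 675 to 1029 counts per sample and a log2 fold change of 0.07. Slc7a9, the carrier chain that rBAT is known to pair with, had 0 counts in all samples. Slc7a3 encodes CAT3, a cationic carrier known from brain, at chrX:101079210-101086020 (ENSMUSG00000031297). It stood at 1.89, 1.94 and 1.70 CPM in normoxia and 4.04, 2.81 and 3.93 CPM in hypoxia, a log2 fold change of 0.96 ± 0.20 (edgeR adjusted p = 0.00244).

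Slc7a1 and Slc7a6 were close to even between the conditions. Slc7a1 encodes CAT1, the widely expressed arginine carrier, and stood at 35.3, 33.0 and 35.9 CPM in normoxia and 32.3, 38.1 and 31.6 CPM in hypoxia, a log2 fold change of -0.03 ± 0.08 (edgeR adjusted p = 0.766). Slc7a6, the y+LAT2 chain that exchanges arginine for glutamine with Slc3a2, stood at 53.1, 53.8 and 51.8 CPM against 54.8, 45.8 and 52.6 CPM, a log2 fold change of -0.05 ± 0.07 (edgeR adjusted p = 0.547). In both, the groups overlapped. Slc7a7, the related y+LAT1 chain, stood at 10.7, 9.91 and 11.2 CPM against 8.99, 9.45 and 8.83 CPM, with a log2 fold change of -0.22 (edgeR adjusted p = 0.0697). Slc7a4, an orphan relative of the CAT carriers, stood at 1.85, 2.28 and 2.11 CPM against 1.26, 1.44 and 1.48 CPM, with a fold of 1.49 just short of the threshold (log2 fold change -0.57 ± 0.20, edgeR adjusted p = 0.0303). Slc7a4 shares 554 exon bases on the opposite strand with P2rx6, whose log2 fold change was -1.38, and their reads cannot be told apart without strand. It was called lower without normoxia replicate 1, with upper-quartile scaling, without the filter on low counts and with a trend over gene length removed, at a log2 fold change of -0.66 in the first of these. Summed per kilobase, the cationic carriers came to 18.8 to 18.9 CPM in normoxia and 17.7 to 19.3 CPM in hypoxia, and these ranges overlapped.

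Carriers of branched-chain and other large neutral amino acids comprised 6 tested genes, of which 1 was higher, 1 lower and 4 not called. Slc7a5 encodes LAT1, which brings leucine and other large neutral amino acids into the cell, at chr8:121881150-121907694 (ENSMUSG00000040010). It fell from 95.6, 64.1 and 84.2 CPM in normoxia to 44.8, 48.4 and 41.7 CPM in hypoxia, with a log2 fold change of -0.85 ± 0.13 (edgeR adjusted p = 0.0004). Normoxia replicate 2 was here the lowest of its group, and without it the log2 fold change was -1.0 ± 0.08 (edgeR adjusted p = 7.14e-06). Slc3a2 encodes 4F2hc, the partner chain that LAT1 and several other Slc7 carriers share, at chr19:8706882-8723369 (ENSMUSG00000010095). It was not called, at 176, 162 and 166 CPM in normoxia and 176, 213 and 177 CPM in hypoxia (log2 fold change 0.16 ± 0.08, edgeR adjusted p = 0.102). The ratio of Slc7a5 to Slc3a2 counts within a sample was 0.542, 0.396 and 0.506 in normoxia and 0.255, 0.228 and 0.236 in hypoxia, with a mean of 0.481 ± 0.0762 against 0.239 ± 0.014 (SD, n = 3 each). Every hypoxia sample lay below every normoxia sample in this ratio, as was already so for Slc7a5 alone. The exact permutation p, with both sides counted, was 0.1, again the smallest possible.

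The other LAT carriers were not called. Slc7a8, the LAT2 chain that pairs with Slc3a2 as well, stood at 32.0, 33.7 and 33.7 CPM in normoxia and 25.5, 31.7 and 26.5 CPM in hypoxia, and its log2 fold change of -0.25 ± 0.09 passed the adjusted p alone (edgeR adjusted p = 0.0312). Slc43a1 and Slc43a2 encode LAT3 and LAT4, which move branched-chain amino acids without a partner chain. Slc43a1 stood at 11.2, 12.4 and 12.6 CPM against 11.3, 11.5 and 12.6 CPM, a log2 fold change of -0.03 ± 0.09 (edgeR adjusted p = 0.788). Slc43a2 stood at 39.6, 45.4 and 38.2 CPM against 36.7, 43.9 and 36.4 CPM, a log2 fold change of -0.07 ± 0.09 (edgeR adjusted p = 0.507). Groups overlapped in both. Slc6a15, which encodes a sodium-dependent carrier of branched-chain amino acids and proline known from brain, was higher in hypoxia, at chr10:103367783-103419377 (ENSMUSG00000019894). Its counts were 27, 15 and 14 in normoxia and 42, 45 and 47 in hypoxia, and its log2 fold change was 1.06 ± 0.29 (edgeR adjusted p = 0.0102). Per kilobase it reached a mean of only 0.196 CPM in hypoxia, where Slc7a5 stood at 12.1 CPM. Summed per kilobase, the class came to 88.2, 76.7 and 82.7 CPM in normoxia and 72.9, 86.2 and 72.7 CPM in hypoxia, which overlapped.

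Of 3 carriers of proline and glycine, 1 was higher and 1 lower. Slc6a9 encodes GlyT1, the sodium- and chloride-dependent glycine carrier, at chr4:117834506-117875198 (ENSMUSG00000028542). It rose from 39.3, 33.4 and 41.0 CPM in normoxia to 64.7, 56.4 and 63.1 CPM in hypoxia, a log2 fold change of 0.70 ± 0.09 (edgeR adjusted p = 0.000114). It shares 1429 exon bases on the opposite strand with Ccdc24, which had 18 to 107 counts per sample and a log2 fold change of 1.79, while Slc6a9 had 881 to 2007 counts. With a trend over gene length removed, its log2 fold change was 0.57 and the call was lost. Slc36a2 encodes PAT2, a proton-coupled carrier of proline, glycine and alanine that is also known as a surface marker of brown adipocytes, at chr11:55158470-55185077 (ENSMUSG00000020264). In normoxia it stood at 30.1, 60.4 and 35.7 CPM and in hypoxia at 11.1, 15.5 and 16.1 CPM, a log2 fold change of -1.56 ± 0.25 (edgeR adjusted p = 0.000524), the lowest of all the carriers. Its high normoxic sample was replicate 2, the one with the highest adipocyte marker sum, and without it the log2 fold change was -1.21 ± 0.14 (edgeR adjusted p = 9.9e-05). Slc36a4 encodes PAT4, a high-affinity carrier of proline and tryptophan, and stood at 64.8, 59.7 and 60.6 CPM in normoxia and 86.2, 73.0 and 77.3 CPM in hypoxia. Its groups did not overlap, and its log2 fold change of 0.35 ± 0.07 passed the adjusted p alone (edgeR adjusted p = 0.00196).

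Lysosomal carriers comprised 3 genes, of which 1 was higher. Slc38a9 encodes the lysosomal arginine sensor that signals to mTORC1 and lets essential amino acids out of the lysosome, at chr13:112660751-112738749 (ENSMUSG00000047789). It rose from 6.24, 9.45 and 6.49 CPM to 12.2, 12.3 and 12.3 CPM, a log2 fold change of 0.73 ± 0.15 (edgeR adjusted p = 0.00256). Without normoxia replicate 2, the highest of its group, the log2 fold change was 0.94 ± 0.10 (edgeR adjusted p = 4.75e-05). Slc38a7 encodes SNAT7, which exports glutamine from lysosomes, and stood at 45, 43.6 and 40.9 CPM in normoxia and 33.1, 33.8 and 34.4 CPM in hypoxia. Its log2 fold change of -0.36 ± 0.06 passed the adjusted p but not the fold (edgeR adjusted p = 0.000635). Slc36a1 encodes PAT1, a proton-coupled exporter of small amino acids that neighbors Slc36a2 on chromosome 11, at chr11:55204350-55236330. It stood at 83.5, 94.8 and 87.4 CPM against 76.0, 73.5 and 83.7 CPM, with overlapping groups and a log2 fold change of -0.19 ± 0.07 (edgeR adjusted p = 0.0387). Summed per kilobase, the class came to 26.1, 28.0 and 25.8 CPM in normoxia and 22.2, 22.0 and 23.9 CPM in hypoxia.

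The remaining 4 genes belong to the same families but carry related substrates. Slc6a12 encodes BGT1, a carrier of the osmolyte betaine and of GABA, at chr6:121343076-121365775 (ENSMUSG00000030109). It was higher in hypoxia, with 2.04, 0.721 and 1.10 CPM in normoxia and 5.65, 3.22 and 4.31 CPM in hypoxia and a log2 fold change of 1.76 ± 0.35 (edgeR adjusted p = 0.00191). Slc6a6 encodes the taurine carrier TauT, at chr6:91684053-91759066 (ENSMUSG00000030096). It fell from 343, 305 and 308 CPM to 229, 181 and 197 CPM, a log2 fold change of -0.66 ± 0.09 (edgeR adjusted p = 0.000215), and without hypoxia replicate 2 the value was -0.58 and the call was lost. BGT1 and TauT both take up osmolytes, and their RNA levels went in opposite directions. Slc6a8 encodes the creatine carrier, and stood at 321, 295 and 335 CPM in normoxia and 394, 416 and 400 CPM in hypoxia, with a log2 fold change of 0.35 ± 0.06 that passed the adjusted p alone (edgeR adjusted p = 0.00108). Slc43a3, a carrier of nucleobases, stood at 205, 213 and 218 CPM against 232, 260 and 247 CPM, a log2 fold change of 0.22 ± 0.06 (edgeR adjusted p = 0.0109). In both of these genes the groups did not overlap. Summed per kilobase, the 4 genes came to 149, 141 and 150 CPM in normoxia and 157, 160 and 157 CPM in hypoxia.

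Ranked by mean level per kilobase of exon, Slc38a10 led in normoxia at 91.6 ± 6.85 CPM (SD, n = 3), followed by Slc6a8 at 60.9 ± 3.86, Slc1a5 at 60.1 ± 16.4, Slc3a2 at 47.7 ± 2.11 and Slc43a3 at 47.5 ± 1.51. Slc6a8 and Slc1a5 differed by less than their spread, as did Slc3a2 and Slc43a3. In hypoxia Slc6a8 at 77.4 ± 2.14 and Slc38a10 at 76.1 ± 4.23 CPM were indistinguishable, and Slc43a3 at 55.1 ± 3.10, Slc3a2 at 53.4 ± 5.93 and Slc38a2 at 49.9 ± 5.49 CPM followed within each other's spread. Slc1a5 stood behind these at 27.7 ± 3.79 CPM. Lengths are those of all annotated exons joined, so the level of a gene with long annotated ends, such as Slc38a1 with 17236 bases or Slc38a9 with 16704, is understated.

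**Figure D3:**
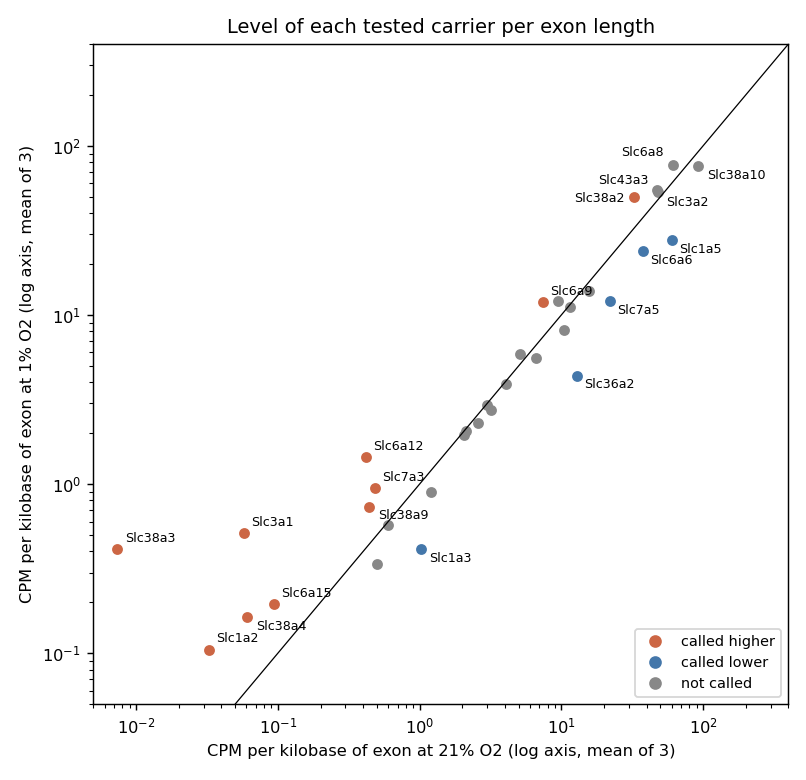
The mean level of each tested carrier, in CPM per kilobase of exon over 3 samples, is plotted at 21% O2 on the horizontal and at 1% O2 on the vertical axis, both log axes, with a line where the conditions are equal. Orange points, called higher, lie mostly below 1 CPM per kilobase in normoxia, with Slc38a2 at 32.6 and Slc6a9 at 7.38, and blue points, called lower, lie between 1.03 for Slc1a3 and 60.1 for Slc1a5.

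Normoxia replicate 2, with the highest adipocyte and macrophage marker sums, was the highest of all samples in 9 of the 34 tested carriers and in 23.3% of all tested genes. Of the 9, Slc36a2, Slc1a5 and Slc1a3 were called lower in hypoxia, and Slc7a10, Slc36a1, Slc43a2, Slc38a6, Slc7a4 and Slc7a8 were not called. Within each condition Slc1a5 ranked the samples in the same order as the macrophage sum. Slc1a3, by contrast, was lowest in hypoxia replicate 2, where both sums were highest in hypoxia. Slc36a2 did not rank the samples in the order of the adipocyte sum in either condition. Without normoxia replicate 2, Slc36a1 (log2 fold change -0.14, edgeR adjusted p = 0.0863), Slc7a8 (-0.24, edgeR adjusted p = 0.0537) and Slc7a4 (-0.51, edgeR adjusted p = 0.0814) no longer passed the adjusted p. Slc38a6 was then at -0.11 (edgeR adjusted p = 0.41), and Slc43a2 at an edgeR adjusted p of 0.991. Slc38a9 had its highest normoxia value in the same library, at 9.45 CPM, and was called higher in hypoxia. Slc7a5 and Slc6a6, also lower, had their highest normoxia level in replicate 1 instead, at 95.6 and 343 CPM. Without normoxia replicate 2 all 5 carriers called lower were still called. The part of other cell types in these differences was not tested.

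**Figure D4:**
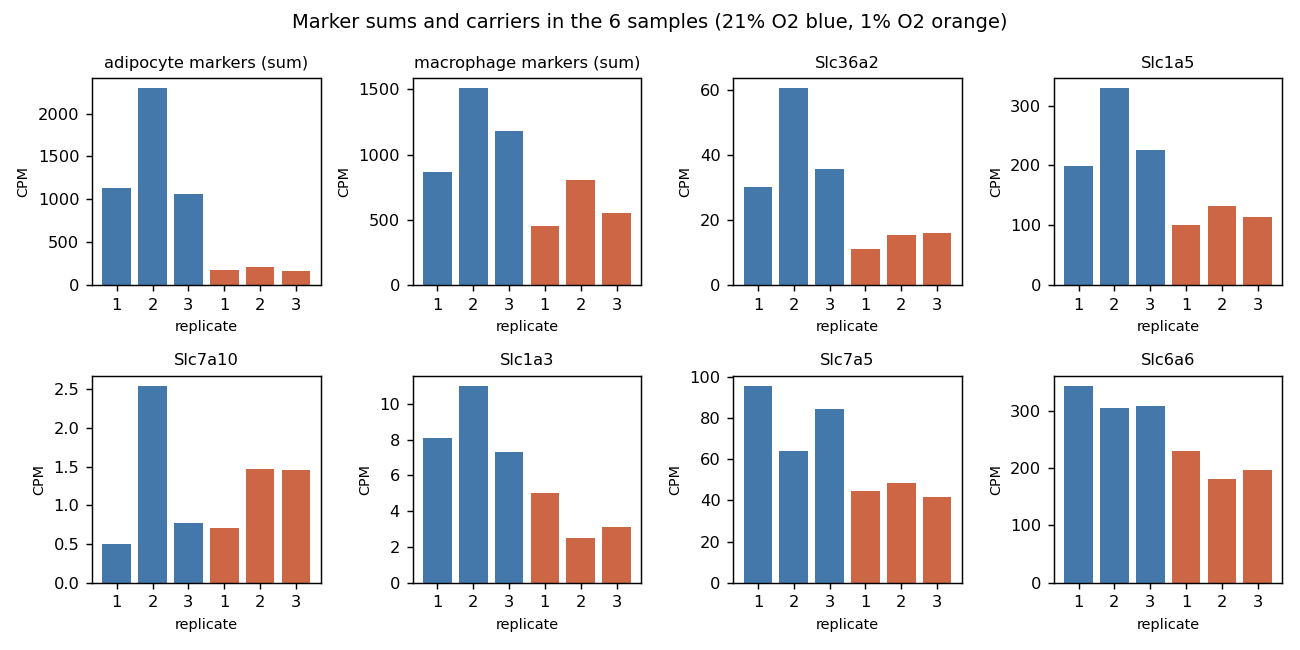
Bars give the summed CPM of 12 adipocyte and 12 macrophage markers and the CPM of 6 carriers in each sample, with normoxia replicates 1, 2 and 3 in blue and hypoxia replicates in orange. Slc36a2 reaches 60.4 CPM and the adipocyte sum 2295 CPM in normoxia replicate 2, while Slc7a5 is lowest there among the normoxia samples, at 64.1 CPM.

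Other amino acid carriers, not among the 36, were mostly too rare to test. Of 24 listed, 8 could be tested, with 2 higher and 1 lower beside 18.9% and 15.3% of all tested genes, and 5 were at 0 in all samples. DESeq2, and edgeR without the filter on low counts, called 2 lower. Slc7a11 encodes xCT, the cystine and glutamate exchanger that pairs with Slc3a2, and rose from 475, 326 and 410 counts in normoxia to 1206, 2292 and 1709 in hypoxia, a log2 fold change of 1.88 ± 0.18 (edgeR adjusted p = 2.36e-05). Slc7a2 encodes CAT2, the inducible cationic carrier, and rose from a mean of 55.5 ± 9.78 to 106 ± 3.68 CPM (SD over 3 samples). The log2 fold change was 0.93 ± 0.11 (edgeR adjusted p = 8.61e-05). Slc1a6, the glutamate carrier EAAT4, fell from 4.85 ± 0.969 to 2.77 ± 0.431 CPM, a log2 fold change of -0.80 ± 0.20 (edgeR adjusted p = 0.00616). The partner chain Slc3a2 was thus near even while xCT was higher and LAT1 lower. Of 9 mitochondrial amino acid carriers 7 could be tested, with none higher and 2 lower, where 18.9% and 15.3% of all tested genes were so called, at a median log2 fold change of -0.52. With a trend over gene length removed, 4 were called lower. Slc25a29, which carries arginine and lysine into mitochondria, had a log2 fold change of -1.49 ± 0.19 (edgeR adjusted p = 0.000118), and Slc25a13, the aspartate and glutamate carrier citrin, one of -0.63 ± 0.15 (edgeR adjusted p = 0.00512).

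ATF4 is the factor that many amino acid carriers and synthesis enzymes answer to when amino acids are short. In a list of 19 genes linked to it, 3 were higher and 4 lower, beside 18.9% and 15.3% of all tested genes, at a median log2 fold change of -0.04. Atf4 itself stood at a mean of 201 CPM in normoxia and 232 CPM in hypoxia, with a log2 fold change of 0.21 that was not called (edgeR adjusted p = 0.0112). Asns, asparagine synthetase and a standard ATF4 target, was not called either, with a log2 fold change of -0.52 (edgeR adjusted p = 0.000452). Vldlr, a lipoprotein receptor, rose by 2.01 ± 0.09 and the stress factor Atf3 by 1.16 ± 0.23 on the log2 scale, together with Ddit4, an mTORC1 inhibitor, by 0.82 ± 0.09. Phgdh, the first enzyme of serine synthesis, had a log2 fold change of -1.69 ± 0.10, and the enzymes Psat1, Psph and Mthfd2 had values of -1.13, -0.98 and -0.82. Ddit4, Psat1, Psph and Mthfd2 were named after their values were seen, to complete these counts.

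In a list of genes of mTORC1 and its regulators, amino acid sensors among them, 29 could be tested. Of these, 1 was higher and 4 were lower, beside the same 18.9% and 15.3% of all tested genes. The median log2 fold change was -0.03. Without normoxia replicate 2 or without hypoxia replicate 3, 2 were higher and 4 lower. Sesn3, a relative of the leucine sensor Sestrin2, fell from a mean of 152 ± 17.2 to 53.5 ± 2.75 CPM (SD over 3 samples), which is -1.51 ± 0.09 on the log2 scale (edgeR adjusted p = 1.04e-06). Rragd, one of the Rag GTPases, had a log2 fold change of -1.04 ± 0.09, and Lamtor4, a subunit of the Ragulator scaffold that anchors them, had one of -0.87 ± 0.07. The remaining called genes of this list, named after their values were seen, were Lamtor1 at -0.65 and Depdc5, a subunit of the inhibitory GATOR1 complex, at 0.80.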

How the data were processed

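The authors made poly(A) libraries from PSC RNA, trimmed the reads with Cutadapt, mapped them to GRCm38 with STAR 2.6.1b and deposited RSEM 1.3.1 expected counts per gene, not normalized between samples and all whole numbers. Conditions and replicate numbers came from the sample labels. Names, coordinates and exon lengths were taken from GENCODE M21, which holds 55154 of the 55426 identifiers on its chromosomes. The annotation release and strand setting of the counting are not given in the sources used here.

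From the expected counts, edgeR 4.0.16 (limma 3.58.1, R 4.3.3) was run with filterByExpr, TMM factors and the quasi-likelihood F test on 3 against 3 samples. Genes were called at a linear fold over 1.5 and a Benjamini-Hochberg adjusted p under 0.05 over 16207 genes. Each SE was the absolute log2 fold change over the root of its F statistic, and CPM are edgeR's cpm on TMM-scaled totals. Intervals on ratios of counts are exact binomial intervals and cover counting error only. The authors tested with DESeq2, which was run here, in version 1.42.0, as an alternative. Replicates differed by more than sampling noise (chi-square per degree of freedom 6.05 to 24.3). The labels do not say whether they are separate PSC lines, so p-values measure the spread between these samples, which may be technical.

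The members and lists were chosen with earlier results of these data known. All 36 carriers are named. Of the pathway lists, the 3 called genes with the largest change at a mean of at least 1 CPM were named, plus Slc7a11, Slc7a2, Atf4 and Asns. Promoters were to be printed for at most 3 called members with a match. Fits were tested on simulated counts. The other experiments of the study were not analysed here.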

Additional observations from a re-analysis of the deposited data

How the results depend on the processing

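Of the 15 called carriers, 10 kept their call in every refit. Among all genes, 5150 were higher and 5018 lower without the fold threshold, and 1929 and 1227 at a fold over 2. Among the carriers, 11 were lower without the fold threshold, and 6 were higher and 3 lower at a fold over 2. Leaving out 1 library at a time gave 9 to 10 carriers higher and 4 to 6 lower (2880 to 3223 and 2346 to 2509 of all genes), with 1 to 2 called among the carriers of related substrates, 3 to 4 neutral and 2 to 3 cationic. Slc38a2 lost its call without normoxia replicate 2 or hypoxia replicate 1 (log2 fold change 0.54), and Slc7a4 was gained without normoxia replicate 1 (-0.66). Removing a trend with gene length, which moved the median of all genes by -0.111 on the log2 scale, lost Slc38a2 (0.51) and Slc6a9 (0.57), which left 1 proline and glycine carrier called, and gained Slc7a4 (-0.70). Upper-quartile factors gained Slc7a4, DESeq2 gained Slc1a1, and no filter gained both.

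Values near 0 changed sign in single refits. With 1 library left out, Slc6a17 ran from -0.32 to 0.11 (0.11 without normoxia replicate 1 or hypoxia replicate 2), Slc7a1 from -0.12 to 0.02 (0.01 and 0.02 without hypoxia replicates 1 and 3) and Slc7a6 from -0.10 to 0.02 (0.02 without hypoxia replicate 2). Slc7a10 ran from -0.45 to 0.94, with 0.94 without normoxia replicate 2 and 0.19 without hypoxia replicate 1. None of these passed the adjusted p, and the cause was not tested.

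With the replicate number as a block, 10 carriers were higher and 5 lower and 3072 and 2500 of all genes, with the same carriers called, and Slc7a10 was at 0.06. DESeq2 with the block put Slc7a10 at 0.15 and lost Slc38a4 (adjusted p = 0.139) and Slc6a15 (adjusted p = 0.0604), which left 1 branched-chain carrier called. Deviations of same-numbered samples correlated at 0.14, 0.14 and 0.04, and each sample correlated best with its own number, a hint from the data and not from the design. Of the pathway lists, the other carriers had 2 lower under DESeq2, with or without the block, and without the filter, the mitochondrial carriers had 1 lower under DESeq2 with the block and 4 with the length trend removed, and the mTORC1 list had 1 to 2 higher with 1 library left out. At these depths Slc1a1 and Slc38a5, with at most 12 counts in a sample, did not pass the filter.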

Other observations

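Of 12 tested enzymes of glutamine, glutamate and aspartate, 4 were called higher and 4 lower in hypoxia, beside 18.9% and 15.3% of all tested genes. Gls2, the liver-type glutaminase that turns glutamine into glutamate, rose from a mean of 0.932 ± 0.363 to 12.6 ± 0.986 CPM (SD over 3 samples), which is 3.75 ± 0.21 on the log2 scale (edgeR adjusted p = 1.04e-06). Nags makes N-acetylglutamate, the activator of the urea cycle, and had 3, 0 and 0 counts in normoxia and 122, 162 and 132 in hypoxia. Its ratio of summed counts was 120, with a 95% exact interval from 40.9 to 586 for counting error. Nags could be tested only through its hypoxia samples, so the 4 called higher are not set above or below the background. The 4 enzymes called lower were each highest in normoxia replicate 2, and without it the counts were again 4 higher and 4 lower. Gfpt2, which uses glutamine to make glucosamine phosphate, rose by 1.3 ± 0.06 on the log2 scale. Also called, and named after their values were seen, were the alanine aminotransferases Gpt at 0.72 and Gpt2 at -0.72, glutamate dehydrogenase Glud1 at -0.68, the mitochondrial aspartate aminotransferase Got2 at -0.73 and Ppat, the first enzyme of purine synthesis, at -0.70.

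In the breakdown of branched-chain amino acids, 8 of 14 tested enzymes were lower and 1 was higher, beside 15.3% and 18.9% of all tested genes, and the median log2 fold change was -0.88. All 8 were highest of all samples in normoxia replicate 2, the library with the highest adipocyte marker sum (2295 CPM, against 1132 and 1065 in the other normoxia samples and 167 to 208 in hypoxia). Without that library the counts were again 8 lower and 1 higher, at a median of -0.73. The part of other cell types in this difference was not tested. The mitochondrial enzymes Bckdhb, Mccc2 and Ivd had log2 fold changes of -1.53 ± 0.12, -1.49 ± 0.11 and -1.32 ± 0.13. Bcat1, the cytosolic aminotransferase that takes the amino group from leucine, isoleucine and valine, was the enzyme called higher, at 0.89 ± 0.12, whereas its mitochondrial counterpart Bcat2 had a log2 fold change of -0.99 ± 0.11. The last pair was named after its values were seen.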
